A study of Mus musculus with 9 samples.

Results

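The regions described here are the places where Argonaute (AGO) was crosslinked to RNA in mouse liver and where the deposited annotation lists a seed match of miR-122-3p, the passenger strand of the miR-122 duplex. A region was taken where at least 1 of its listed matches was of miR-122-3p and none was of miR-122-5p, the guide strand, or of the guide strand's additional class that the authors mark with "-B". This gave 747 of the 92645 regions in the table. Another 44 regions held matches of both strands and were left out. AGO CLIP-seq recovers RNA that ultraviolet light crosslinks to AGO. It was done on 4 miR-122 KO livers and on 5 livers of floxed littermate controls, each library from 1 mouse aged 6 weeks. The KO mice were 1 female and 3 males, and the control mice 3 females and 2 males. Frozen, powdered whole liver was crosslinked and AGO was isolated with a pan-AGO antibody, so the values come from all liver cells together. Which Cre driver made the deletion is not stated in the labels.

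A microRNA gene is transcribed as a hairpin, from which a short duplex is cut. AGO keeps the guide strand of that duplex and usually discards the passenger strand, although some passenger strands are loaded too. A loaded strand pairs with target RNA mainly through its seed, the bases near its 5′ end, so the complement of the seed in a bound RNA is called a seed match. In the liver, miR-122 is the most abundant microRNA of hepatocytes and its best-known targets are those of the guide strand.

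The match itself could be read for the member sites that lie within the RefSeq promoter windows (GRCm38.p6, the build that mm10 denotes), which run from 250 bases before to 50 bases after a gene's start. There were 18 such sites, and all of them held the same 6 bases. The lines below show 1 site of each match class, with the match in capitals, on the strand of the RNA and 5′ to 3′, because the results divide the regions by these classes.
Sdha, 8mer, 5′ UTR, chr13:74350146-74350171, minus strand: ggcggcgctTGGCGTTAactggggcg
Akr1c14, 7mer-m8, 5′ UTR, chr13:4059562-4059587, plus strand: caattttccTGGCGTTtatcctgtga
Bpgm, 7mer-A1, 5′ UTR, chr6:34476371-34476396, plus strand: tctgcagcacGGCGTTAccgaggacc
Clock, 6mer, 5′ UTR, chr5:76303456-76303481, minus strand: aacttttacaGGCGTTgttgattgga
The 6mer is GGCGTT, the 7mer-m8 adds a T before it, the 7mer-A1 adds an A after it, and the 8mer has both. The 8mer letters were read at 1 site, the 7mer-A1 letters at 1, the 7mer-m8 letters at 7 and the 6mer letters at 9.

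The match holds a CG pair, which is rare in mammalian genomes. Searched on both strands of the 32851 promoter windows of 300 bases, GGCGTT was present in 6.51%, TGGCGTT in 1.67%, GGCGTTA in 0.855% and TGGCGTTA in 0.201%. The letters of 25 of the 31 families in the table could be derived, and 4 of them held a CG. These 4 had the fewest regions of all 31 families, with 550 for miR-2137, 616 for miR-126a-3p, 791 for miR-122-3p and 1188 for miR-191-5p. The mature sequences of the remaining CG families are shown with the seed (bases 2 to 8) in capitals, because their regions are set beside the miR-122-3p regions further on.
miR-2137: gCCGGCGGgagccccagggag
miR-126a-3p: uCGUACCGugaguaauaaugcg
miR-191-5p: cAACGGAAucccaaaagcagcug
These sequences are RefSeq's (GRCm38.p6). No seed is shared among them.

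The 747 regions had a median width of 70 bases. By the longest match each held, 74 had an 8mer, 308 a 7mer-m8, 77 a 7mer-A1 and 288 a 6mer. They lay in 307 cases in coding sequence, in 209 in a 3′ UTR, in 79 in a 5′ UTR and in 52 in an intron, and 9 were annotated as structural RNA and 2 as a microRNA. A gene name was given for 686 regions, and 673 of those lay within 1 kb of that gene in the reference table. In 378 regions another microRNA family also had a match, most often miR-15/16 (56 regions), miR-103/107 (54) and miR-22 (45).

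Library totals ran from 612479 to 1070610 counts in KO and from 445912 to 1170130 in controls. CPM are counts scaled by that total, and a count of 3 was worth 2.56 to 6.73 CPM in a single library. Members were thinly covered, with a median of 28 counts over all 9 libraries, and 150 of the 747 passed the filter on low counts that goes before the test. The region over the miR-122 hairpin itself held 51.7, 2.92, 36.4 and 26.1 CPM in the KO libraries, against 630, 605.5, 332, 338 and 435 CPM in controls. Every KO library was below every control (15.99-fold on CPM; two-sided exact permutation on TMM-scaled CPM, p = 0.00794, the smallest that 126 splits can give). Summed hepatocyte marker regions took 18800 to 27500 CPM in KO and 31800 to 38600 CPM in controls. Summed neuron marker regions took 2000 to 8240 CPM in KO, highest in KO replicate 4, and 51.0 to 60.7 CPM in controls, where 7 of the 23 neuron markers with a region had no count. In whole liver, fewer cells of a type and less bound RNA per cell cannot be told apart.

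AGO binding at miR-122-3p match regions was lower in KO livers, and the difference was larger for 8mer than for 7mer and for 7mer than for 6mer matches, though the classes were not tested against each other. Among the 150 tested members, 85 were lower in KO, 5 were higher and 60 did not pass (edgeR's quasi-likelihood test with genotype and sex as terms, Benjamini-Hochberg adjusted p under 0.05 over all 17182 tested regions). Of all tested regions, 27.6% were lower and 17.5% higher. The tested members had a median log2 fold change of -1.58, KO over control, where all tested regions had 0.03 and the 13765 without any miR-122 match had 0.27. Without KO replicate 4, the library richest in neuron markers, 113 of 188 tested members were lower and 7 higher. Without control replicate 3 the counts were 54 lower of 109, and without control replicate 4 they were 56 lower of 109. The test's filter passes a region with enough reads in controls alone, so the direction of such a region is not free, and 7 of the 150 had at most 3 counts over the KO group.

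Of 19 tested regions with an 8mer, 18 were lower and none was higher, with a median log2 fold change of -3.76. Of 69 with a 7mer-m8, 47 were lower and 1 higher (median -1.95), and of 14 with a 7mer-A1, 8 were lower and 1 higher (median -1.92). The 6mer regions were mostly not past the threshold: 12 of 48 were lower and 3 higher, with a median of -0.33. Regions of the guide strand were lower in every class, with medians of -4.68 for the 8mer, -3.92 for the 7mer-m8, -3.82 for the 7mer-A1 and -3.00 for the 6mer. The step between the longest and the shortest match was thus wider for the passenger strand on the log2 scale, a difference that was not tested. Low counts limit this comparison. Of 461 tested guide-strand 8mer regions, 195 had at most 3 counts over the KO group, as had 3 of the 19 passenger-strand ones. With the 47 guide-strand 8mer regions that had no KO count set at a floor of 3 counts, their class median was -4.49.

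**Figure D1:**
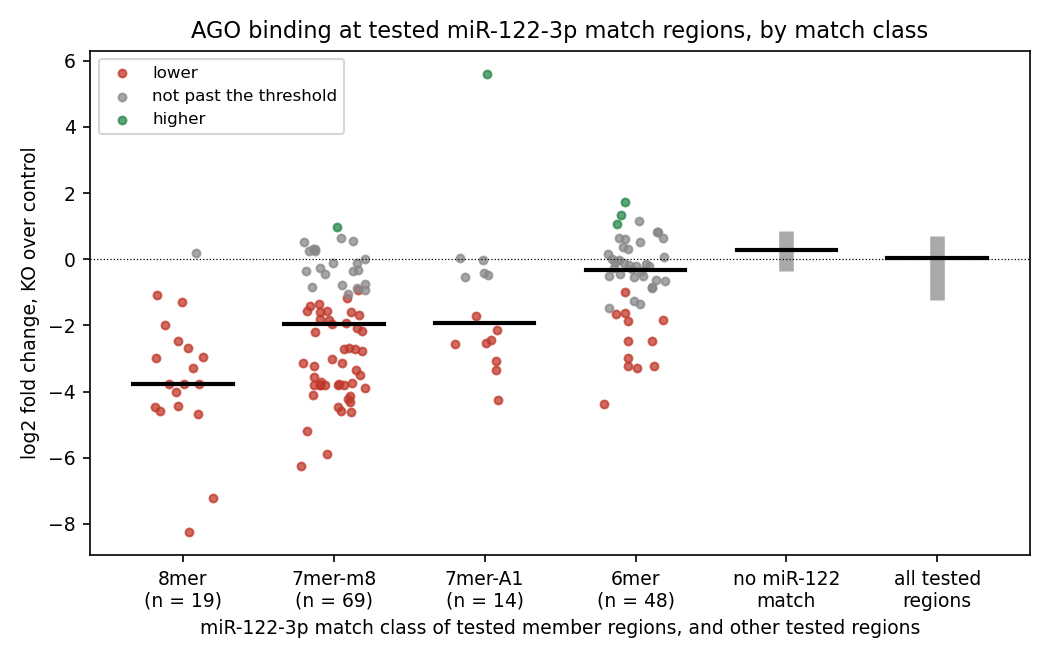
Each point is a tested miR-122-3p match region, placed by its longest match and its log2 fold change, KO over control; black lines are medians and grey bars the interquartile range of the other tested regions. The 8mer regions lie around -3.76, both kinds of 7mer near -1.95 and -1.92, and the 6mer regions around -0.33, against 0.27 for regions with no miR-122 match and 0.03 for all tested regions.

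The same order was seen with another filter and with none. Reads in controls alone can also reach a mean over all 9 libraries. Only the run with no filter left out no region for low counts. With a mean of at least 20 counts over all 9 libraries, 57 members were left and 37 of them were lower and 2 higher, where 28.9% of all regions so chosen were lower and 25.9% higher. Of these, 9 of 10 8mer regions, 21 of 28 7mer-m8 regions, 4 of 8 7mer-A1 regions and 3 of 11 6mer regions were lower. With no filter, all 747 members entered the test and 216 were lower and 25 higher, where 11.3% of all 92645 regions were lower and 12.2% higher. There, 37 of 74 8mer regions were lower, 119 of 308 7mer-m8 regions, 20 of 77 7mer-A1 regions and 40 of 288 6mer regions. With no test at all, mean CPM was lower in KO than in controls for 527 of the 747 members, against 38.1% of all regions, and for 63 of the 74 with an 8mer but 158 of the 288 with a 6mer. The median of the authors' deposited log2 value, which runs control over KO, was 2.46 for the 8mer members, 1.92 for the 7mer-m8, 1.63 for the 7mer-A1 and 0.645 for the 6mer members, and 0.0958 for all regions in the authors' deposited table.

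Summed over all members, tested or not, the counts show how much AGO-bound RNA these regions took. All 747 together held 1.43% ± 0.196 of library counts in KO (SD, n = 4) and 1.82% ± 0.234 in controls (n = 5), and the groups overlapped. A single structural RNA region on chromosome 17 named Gm26924, which lies over Rn18s-rs5 in the reference table, held 0.942% ± 0.185 in KO and 0.915% ± 0.247 in controls. With the structural RNA and microRNA regions left out, a choice made after the values were seen, 736 regions remained. They held 0.330%, 0.319%, 0.312% and 0.282% of counts in the KO libraries, against 0.737%, 0.648%, 0.776%, 0.739% and 0.647% in the controls. The KO libraries were close to each other, and the highest of them was well below the lowest control.

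By class, the 73 8mer regions without structural RNA and microRNA took 0.0188% ± 0.00202 of counts in KO and 0.0902% ± 0.0102 in controls, 4.80-fold lower. The 303 7mer-m8 regions took 0.110% ± 0.0132 in KO and 0.367% ± 0.0385 in controls, 3.35-fold lower. The 73 7mer-A1 regions were 2.13-fold lower and the 287 6mer regions 1.20-fold lower. In each of the 4 classes all KO libraries were below all controls. The 597 members that the test left out moved in the same order, 2.61-fold lower for the 8mer, 2.17-fold for the 7mer-m8, 1.89-fold for the 7mer-A1 and 1.07-fold for the 6mer, and only in the 6mer class did their groups overlap. The hepatocyte marker sum given above was also lower in KO, and its part in these shares was not tested.

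**Figure D2:**
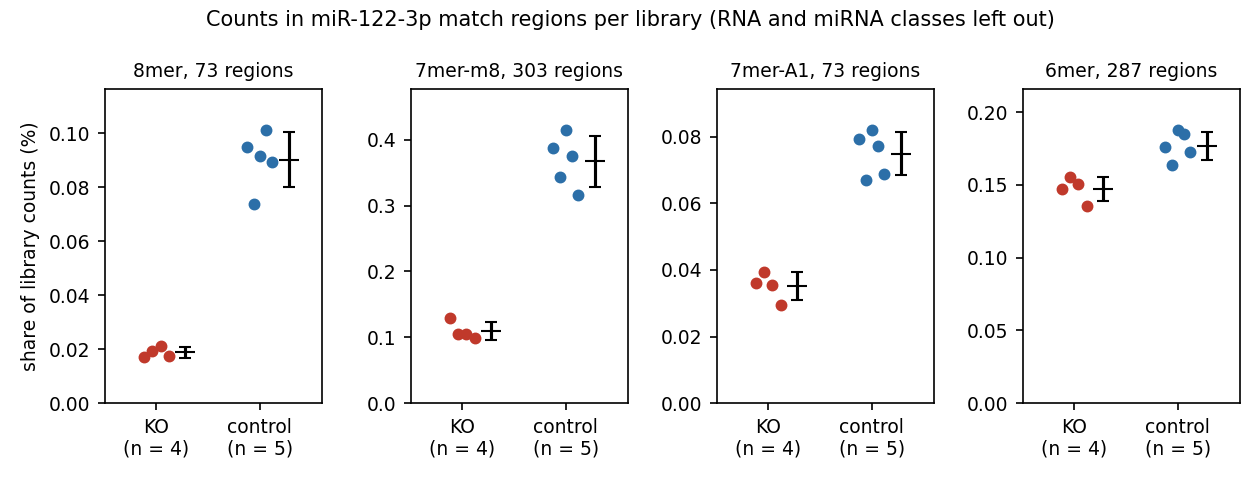
Points are the share of each library's counts, in percent, that fell in miR-122-3p match regions of each class, with structural RNA and microRNA regions left out; KO libraries are left of controls, and the bars beside them are the mean and SD. The gap narrows along the classes, 4.80-fold for the 8mer, 3.35-fold for the 7mer-m8, 2.13-fold for the 7mer-A1 and 1.20-fold for the 6mer.

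The 8mer regions that changed lay in genes of varied function. In the 5′ UTR of Sdha, the flavoprotein subunit of succinate dehydrogenase, at the site printed above, the KO libraries held 6.96, 2.92, 2.80 and 1.63 CPM, against 55.0, 38.1, 92.3, 63.2 and 56.4 CPM in controls. The groups did not overlap, as was so for 24.0% of all tested regions with KO below control, and the log2 fold change was -4.01 (SE 0.41, adjusted p = 8.1e-07). In the coding sequence of Gstz1 (chr12:87159060-87159129), an enzyme of tyrosine breakdown, KO libraries held 3.97, 2.92, 3.74 and 4.90 CPM, against 60.6, 94.2, 81.8, 101 and 87.3 CPM in controls. All KO values were close together and far below the lowest control, and the log2 fold change was -4.57 (SE 0.35, adjusted p = 4.1e-08).

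The coding sequence of Ube3a (chr7:59276658-59276727), an E3 ubiquitin ligase, held 1.99, 3.90, 0.934 and 0 CPM in KO and 50.7, 35.9, 46.6, 45.3 and 32.2 CPM in controls. The KO libraries were again all low (log2 -4.43, SE 0.48, adjusted p = 1.2e-06). The coding sequence of Ube3a held another tested member (chr7:59276304-59276373), a 7mer-m8 region with a miR-21 match as well. That region was not lower, with means of 20.3 CPM in KO and 12.4 CPM in controls (log2 0.55, SE 0.35, adjusted p = 0.225). The noncoding gene Snhg14 overlaps this locus in the reference table, and since no source used here says whether strand was counted, the gene is uncertain. Also lower were 8mer regions in the coding sequence of C8b, a chain of complement C8 (log2 -4.69), of the polyamine transporter Atp13a3 (-3.76), of the lysosomal protein Tmem106b (-3.76) and of Pex5, the import receptor of peroxisomes (-3.30), and in the 5′ UTR of the immunoproteasome subunit Psmb8 (-3.76).

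Some 8mer regions had no count in any KO library. The 3′ UTR region of Tars, threonyl-tRNA synthetase (chr15:11383663-11383732), held 0 CPM in all 4 KO libraries and 21.1, 11.2, 14.1, 17.9 and 26.9 CPM in controls. Against a floor of 3 counts over the KO group it was at least 22.6-fold lower (adjusted p = 1.3e-05). The Tars region was not tested when control replicate 3 or 4 was left out, or with a mean of at least 20 counts. An intergenic region (chr16:24088144-24088213) held 0 CPM in all KO libraries and 8.46, 11.2, 20.2, 73.5 and 32.2 CPM in controls, at least 36.1-fold lower by the same floor (adjusted p = 3.0e-06). Its control level was uneven, with replicate 4 well above the others, and without that library the bound was at least 22.3-fold. The region was not tested when control replicate 2, 3, 4 or 5 was left out, since it then failed the filter on low counts.

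The smallest difference among the 8mer regions that passed was in Ctnnb1. Its 3′ UTR region, in the gene of beta-catenin (chr9:120959975-120960095), also holds a miR-29 match and had 25.8, 57.5, 63.5 and 34.3 CPM in KO and 137, 71.8, 73.0, 85.5 and 71.2 CPM in controls. The groups did not overlap but the highest KO library came close to the lowest control (log2 -1.09, SE 0.34, adjusted p = 0.0144). Without KO replicate 1 the call was lost (log2 -0.60, edgeR adjusted p = 0.186). The remaining 7 lower 8mer regions, named here to complete the class after their values were seen, were those of Sgpl1 (log2 -4.46), Ubr2 (-3.00), Zmym2 (-2.96), Cnn3 (-2.69), Nckap1 (-1.97) and Dap (-1.30) in coding sequence and of Ptprk (-2.48) in the 3′ UTR. The 8mer region that did not pass was the hairpin of Mir16-1, described with the other hairpin below.

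Among members outside structural RNA and microRNA hairpins, the highest control levels were in 7mer-m8 regions. In the 5′ UTR of Hadh, a dehydrogenase of mitochondrial fatty acid oxidation (chr3:131271971-131272040), the KO libraries held 15.9, 10.7, 4.67 and 6.53 CPM, against 217, 314, 226, 76.1 and 99.3 CPM in controls. The controls were spread over a wide range but all stood above the KO libraries (log2 -3.81, SE 0.33, adjusted p = 1.4e-07). In the 3′ UTR of Btg1, an antiproliferative partner of the mRNA deadenylases (chr10:96619195-96619264), the levels were 22.9, 5.85, 4.67 and 3.27 CPM in KO and 144, 65.0, 213, 125 and 125 CPM in controls. KO replicate 1 stood above the other KO libraries, and still below every control (log2 -3.80, SE 0.44, adjusted p = 2.5e-06).

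Other 7mer-m8 regions lay in liver enzymes. In Aldh2, the mitochondrial aldehyde dehydrogenase that clears acetaldehyde (coding sequence, chr5:121575091-121575160), there were 3.97, 2.92, 5.60 and 3.27 CPM in KO and 81.8, 65.0, 101, 83.8 and 94.0 CPM in controls (log2 -4.48, SE 0.35, adjusted p = 4.6e-08). The 5′ UTR region of Cyp1a2, a cytochrome P450 of drug metabolism, held 13.9, 24.4, 14.9 and 19.6 CPM in KO and 140, 78.5, 135, 119 and 109 CPM in controls (log2 -2.78, SE 0.32, adjusted p = 2.2e-06). In both genes the groups were well apart. Regions in the coding sequence of Nol6, of ribosomal RNA processing (log2 -5.90), and of Acaa1b, a peroxisomal thiolase (-4.63), and in the 3′ UTR of Mid1ip1, which promotes the assembly of acetyl-CoA carboxylase (-4.12), were lower as well. At the Akr1c14 site printed above, in the 5′ UTR of a reductase of steroids, 4 counts were found in KO and 90 in controls (log2 -4.22, SE 0.60, adjusted p = 2.2e-05).

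Some members lay in a gene and in a pseudogene named for it. Their sequences were not compared here, and whether reads were split between such copies is not known. The coding region of Glo1, the methylglyoxal-detoxifying glyoxalase (chr17:30594168-30594237), held 4.97, 2.92, 4.67 and 0 CPM in KO, against 53.6, 87.5, 81.8, 82.0 and 92.6 CPM in controls (log2 -4.59, SE 0.41, adjusted p = 1.8e-07). The pseudogene region named Gm13443 in the file is Glo1-ps in the reference table, and it held 14.9, 12.7, 11.2 and 4.90 CPM in KO and 83.2, 101, 116, 103 and 109 CPM in controls (log2 -3.23, SE 0.30, adjusted p = 2.3e-07). Both were low in every KO library. The ribosomal protein gene Rpl14 (log2 -2.43) and its pseudogene Rpl14-ps1 (-2.55) were likewise both members, both with a 7mer-A1 and both lower. Of the 8 tested pseudogene members 6 were lower, the pseudogene Gm13904 (-4.11) among them.

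In the shorter classes the lower regions were fewer. The 8 lower 7mer-A1 regions had log2 fold changes of -4.26 in the 3′ UTR of Tpd52 to -1.70 in a region that the file names Fgfr2 but that lies over Oat in the reference table, so that its gene is uncertain, and included those of the alanine aminotransferase Gpt2 (-2.14) and of the proteasome subunit Psmb5 (-3.08). Of the 12 lower 6mer regions 7 lay in coding sequence, and their log2 fold changes ran from -4.36 in Ubfd1 to -0.98 in an intron of Asxl2, with the isocitrate dehydrogenase Idh1 (-1.86), the cytochrome P450 Cyp2c29 (-2.99) and the acyl-CoA thioesterase Acot12 (-3.22) among them. Another of the lower 6mer regions lay in an intron of Ddx3y on the Y chromosome (log2 -1.84). It held 16, 15 and 19 counts in the 3 female controls, so the origin of its reads is uncertain. The Asxl2 region holds matches of the same other families, miR-101/144 and miR-25/32/92, and overlaps Gm31332 in the reference table. Whether its reads came from elsewhere was not tested. These genes were named after their values were seen. The 12 lower 6mer regions were out of 48 tested, no larger a share than the 27.6% lower among all tested regions. It was larger than the 12.7% lower among tested regions holding no miR-122 match. Neither difference in share was tested.

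**Figure D3:**
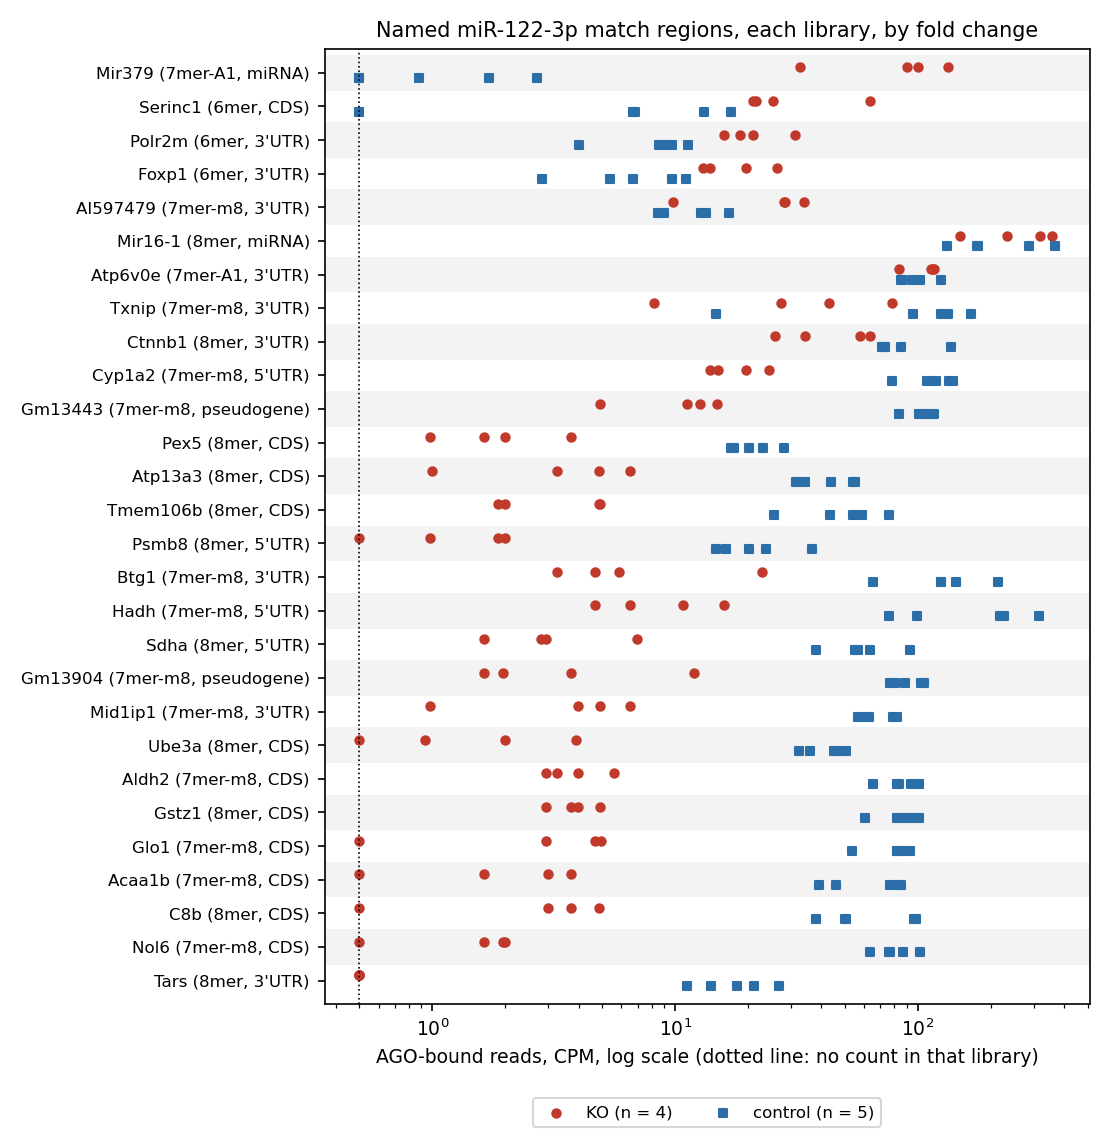
Each row is a named region, with its match class and annotation, ordered by fold change; red points are the 4 KO libraries and blue squares the 5 controls, in CPM on a log axis, and points on the dotted line had no count. The structural RNA and unnamed regions are not drawn. KO libraries lie left of all controls from Ctnnb1 downward, overlap them from AI597479 to Txnip, and lie right of them from Mir379 to Foxp1.

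The members that were higher in KO were few, and 3 of the 5 had only a 6mer. The hairpin of Mir379, at the start of the microRNA cluster in the imprinted Dlk1-Meg3 locus (chr12:109709044-109709113), held 32.8, 100.4, 133 and 89.8 CPM in KO and 0, 0, 0.879, 1.71 and 2.69 CPM in controls. There were 333 counts in KO against 5 in controls, so the groups were far apart, and the log2 fold change was 5.61 (SE 0.43, adjusted p = 4.1e-08). The neuron marker regions, none of them a member, were also higher in every KO library, and their part in the Mir379 change was not tested. The other four were the 3′ UTR regions of the RNA polymerase II regulator Polr2m (log2 1.35, adjusted p = 0.0172), of AI597479 (0.99, adjusted p = 0.0345) and of the transcription factor Foxp1 (1.07, adjusted p = 0.0470), and the coding region of Serinc1 (1.73, adjusted p = 0.0301). These calls were not stable: that of Foxp1 was lost in 9 of the alternatives (adjusted p up to 0.159, DESeq2 0.0649), that of AI597479 in 7 (up to 0.241), and those of Polr2m (up to 0.0657) and Serinc1 (up to 0.176) in 2 each, without control replicate 4 and without control replicate 5. Serinc1 held 20.9, 21.4, 25.2 and 63.7 CPM in KO and 16.9, 0, 13.2, 6.84 and 6.71 CPM in controls, with KO replicate 4 far above the rest.

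Both microRNA hairpins among the members hold the match next to or across the end of a mature strand. The stretches around it are shown with the match in capitals, from RefSeq (GRCm38.p6), because these regions went against the others of their class.
Mir16-1, 8mer, chr14:61631922-61631951, minus strand: cacguaaauauUGGCGUUAagauucugaaa
Mir379, 7mer-A1, chr12:109709073-109709101, plus strand: uauggaacguaGGCGUUAuguuuuugacc
In Mir16-1, 5 bases of the match belong to mature miR-16-5p, and in Mir379, 2 bases belong to mature miR-379-5p. The Mir16-1 region held 149, 233, 319 and 358 CPM in KO and 366, 287, 132, 177 and 174 CPM in controls. The groups overlapped over most of their range, and the difference did not pass (log2 0.20, SE 0.42, adjusted p = 0.727).

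None of the structural RNA regions passed the test. Of the 9 annotated as RNA, 7 were tested, with a median log2 fold change of -0.03. Gm26924 had 10460, 9545, 6781 and 10890 CPM in KO, against 6551, 10590, 7672, 8233 and 12690 CPM in controls (log2 -0.03, SE 0.31, adjusted p = 0.948). An unnamed region on chromosome 10 (chr10:82955301-82955370) averaged 1076 ± 170 CPM in KO and 1359 ± 351 CPM in controls (adjusted p = 0.235). Among mRNA regions of high level, the 7mer-A1 region in the 3′ UTR of Atp6v0e, a subunit of the vacuolar proton pump, had 107 ± 16.1 CPM in KO and 98.3 ± 16.2 CPM in controls (log2 0.04, SE 0.22, adjusted p = 0.908). The 3′ UTR region of the thioredoxin-binding protein Txnip averaged 39.2 ± 29.8 CPM in KO and 106.8 ± 57.2 CPM in controls, with 1 low library in each group, and did not pass (log2 -1.05, SE 0.42, adjusted p = 0.0514).

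The difference was present in each part of the transcript. In coding sequence 37 of 56 tested members were lower and 1 higher, with a median log2 fold change of -2.18, where regions without a miR-122 match had a median of -0.03 and 19.6% lower. In 3′ UTRs 23 of 47 were lower and 3 higher (median -0.94), where regions without a match had 0.54 and 7.3% lower. In 5′ UTRs 9 of 12 were lower and none higher (median -2.36), where regions without a match had -0.02 and 21.7% lower. The classes differed within the 3′ UTR: the 16 tested 6mer regions there had 2 lower and 2 higher and a median of 0.19, while 16 of 24 7mer-m8 regions and 3 of 3 8mer regions were lower. In coding sequence 12 of 12 8mer regions, 15 of 23 7mer-m8 regions, 3 of 4 7mer-A1 regions and 7 of 17 6mer regions were lower. By conservation of the match, 36 of 48 tested 7mer or 8mer regions with a mean phyloP under 1 were lower, and 36 of 49 with 1 or more, with medians of -2.70 and -2.20.

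Of the named liver gene lists, few members could be tested. The list of hepatocyte metabolism and secretion genes held 10 member regions, of which 3 were tested: that in Hpd, an enzyme of tyrosine breakdown, was lower (6mer, log2 -3.24, adjusted p = 5.9e-06), and those in the lipid synthesis enzymes Gpam (-0.48) and Dgat2 (-0.62) did not pass. Hpd held 6.96, 7.80, 1.87 and 9.80 CPM in KO and 57.8, 71.8, 69.5, 47.9 and 61.8 CPM in controls, a clear gap for a 6mer region. The listed genes also had 399 tested regions that lacked any miR-122 match. Among these, 148 were lower in KO and 11 higher, with a median log2 fold change of -0.53. The values of Gpam and Dgat2 lay near that median. Whether members of this list differed from its other regions was not tested. Genes of the microRNA pathway had 3 member regions, in Ago2, Ago3 and Cnot1, none tested, and the lists of matrix and of neuronal genes had no member.

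Whether another microRNA family also had a match in the region went with the size of the difference. Among tested members with no other match, 53 of 68 were lower and 3 higher, with a median log2 fold change of -2.97. Among those with another family's match, 32 of 82 were lower and 2 higher, with a median of -0.69. Within classes, the lower counts were 14 of 14 without and 4 of 5 with another match for the 8mer, 26 of 30 and 21 of 39 for the 7mer-m8, 7 of 8 and 1 of 6 for the 7mer-A1, and 6 of 16 and 6 of 32 for the 6mer. The difference between regions with and without another match was not tested. Of regions in which no family had a match, 24.2% were lower.

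**Figure D4:**
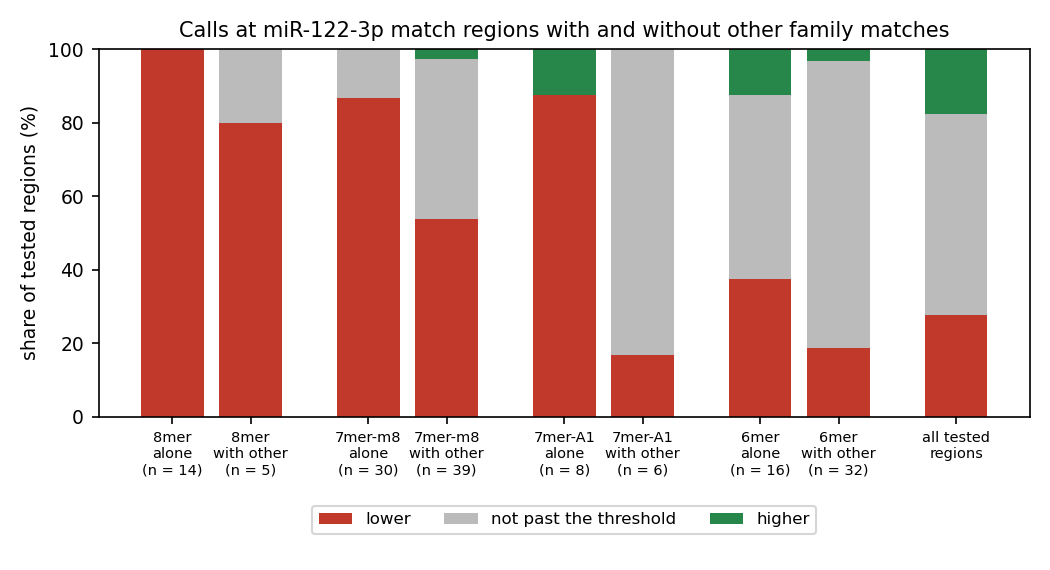
Bars give the share of tested members, in percent, that were lower, not past the threshold or higher in KO, by match class and by whether another family's match lay in the same region, with all tested regions on the right. In each class the lower part is larger where the miR-122-3p match stood alone.

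Members were lower both in genes that also held a guide-strand region and in genes that did not. In genes with a guide-strand region, 40 of 64 tested members were lower and 1 higher (median -1.76), and in genes without one 37 of 66 were lower and 4 higher (median -1.53). Among members that had no guide-strand region within 1 kb and lay in a gene without one or had no gene name (19 of the tested ones), 44 of 84 were lower and 4 higher (median -1.32). Of these, 8 of 9 8mer regions and 25 of 37 7mer-m8 regions were lower, but 7 of 30 6mer regions. The 356 members of that kind, tested or not and 54 of them with no gene name, held 0.341% ± 0.0156 of counts in KO and 0.551% ± 0.0264 in controls, 1.62-fold lower with no overlap.

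The remaining families whose match holds a CG had positive medians. Among regions without a miR-122 match, 11 of 91 tested miR-126a-3p regions were lower and 4 higher (median 0.21), 18 of 241 miR-191-5p regions were lower and 79 higher (median 0.67), and 11 of 92 miR-2137 regions were lower and 26 higher (median 0.41). Their tested 8mer regions, only 8, 32 and 3 in number, had medians of 0.23, 0.84 and 0.74, where the 19 miR-122-3p 8mer regions had -3.76. All 13765 tested regions without a miR-122 match had 12.7% lower, 21.5% higher and a median of 0.27. These are descriptions of lists, and the difference between families was not tested.

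To separate a change at the region from a change of all AGO-bound RNA of its gene, each region was also set against the summed tested regions of that gene. Of 107 members in genes with at least 2 tested regions, 50 were lower than their gene and 4 higher (edgeR's diffSpliceDGE, adjusted p under 0.05 over 12830 regions, of which 15.9% were lower and 15.9% higher). The median log2 difference was -2.70 for 15 8mer regions, -1.36 for 49 7mer-m8 regions, -1.03 for 10 7mer-A1 regions and -0.34 for 33 6mer regions. Ube3a stood 4.42 log2 units under its gene (adjusted p = 4.3e-11), Aldh2 4.10 (adjusted p = 4.0e-16), Tmem106b 3.99 (adjusted p = 1.3e-08), Atp13a3 3.64 (adjusted p = 4.8e-12) and Btg1 3.17 (adjusted p = 9.9e-08). In Aldh2 the 14 other tested regions had a median log2 fold change of -0.31 with 2 lower, in Ube3a the 4 others had 0.68 with 1 higher, and in Atp13a3 the 6 others had 0.19. Elsewhere the rest of the gene was lower too. Guide-strand regions apart, 4 of 5 others were lower in Acaa1b (median -1.6), and 3 of 8 in Sdha, with 1 higher (-0.83). Of the 15 8mer regions 11 were lower than their gene, and of the 3 in 3′ UTRs 1 was, with a median difference of -0.60. The regions of Ptprk (0.22), Dap (-0.38) and Ubr2 (-0.93) were among the 8mer regions that did not pass (diffSpliceDGE adjusted p = 0.923, 0.54 and 0.195). The region of Akr1c14 did not pass either (-1.51, diffSpliceDGE adjusted p = 0.0618). With the guide-strand regions taken out of the rest of the gene, 53 of 101 members were lower than their gene and none was higher.

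**Figure D5:**
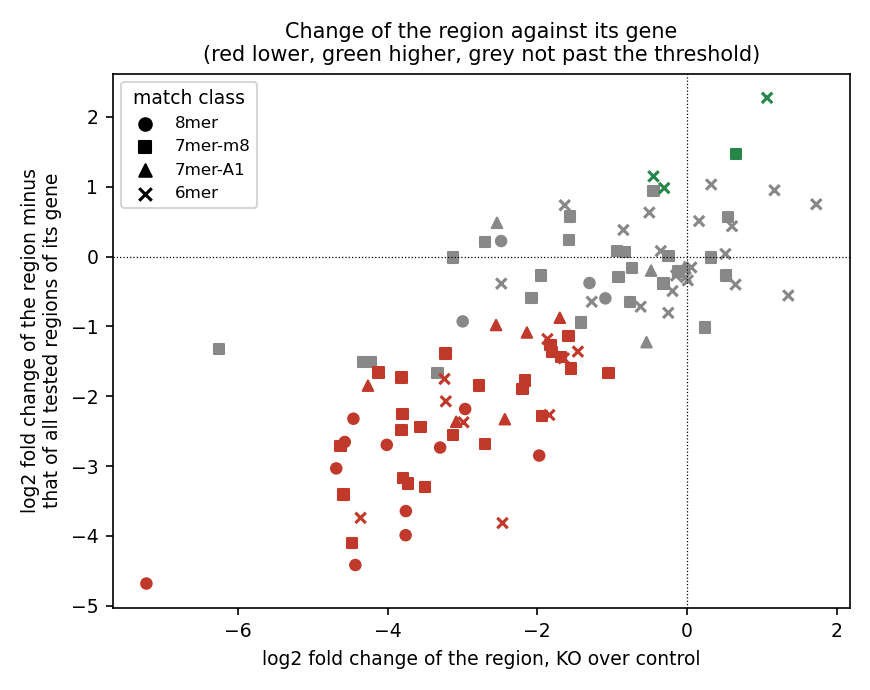
Each point is a member region, by its own log2 fold change, KO over control, and by that change minus the change of all tested regions of its gene; shapes give the match class. The 50 regions lower than their gene (red) lie at the lower left, among them Ube3a and Aldh2 below -4, and Foxp1, at 1.07 and 2.27, is at the upper right. The only other tested region of Foxp1 was a guide-strand region that was itself lower in KO (log2 -4.4).

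The match lay closer to the middle of the region in the longer classes. Within regions of 70 bases, the median distance between the match and the region's centre was 5 bases for the 8mer, 6 for the 7mer-m8, 7.5 for the 7mer-A1 and 12 for the 6mer. The match lay within 15 bases of the centre in 85.5% of the 76 matches of members lower in KO and in 62.5% of the 40 of members not past the threshold. For the guide strand this share was 85.2%, and for all other families together 66.8%. Position was not used to choose the members, and the difference in position was not tested.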

How the data were processed

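AGO CLIP-seq read counts per region and mouse were used as deposited; per the file headers they are counts per mouse, not normalized. A region has a row per seed match, with its counts repeated, so counts were taken once per region. Per the submitters' processing notes, Bowtie2 and mm10 were used; how peaks were called, duplicates treated and reads counted is not stated in the labels or headers. The libraries were amplified, so floors (3 counts) cover counting error only. The deposited log2 value is the authors' control over KO, and the deposited conservation score is the authors' mean phyloP of the 6 match bases, per the file headers. The count columns beyond single libraries, such as the numbers of libraries with a read, were not used.

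The main test was the quasi-likelihood test of edgeR 4.0.16 under R 4.3.3, after filterByExpr and TMM scaling, on a model of genotype and sex, with Benjamini-Hochberg adjustment over all tested regions and a threshold of 0.05. Every adjusted p of a region in the report is from this test unless diffSpliceDGE (same package, same fit) is named. DESeq2 1.42.0 was an alternative. On simulated counts with known changes for the KO against control design, 14500 regions passed the filter; where the true log2 fold was -2, 62.2% of 37 regions were recovered, with 13.2% of 38 at -1, 7.32% of 41 at 1 and 85.1% of 47 at 2, with 1 false call. For the region set against its gene, 42.3% of 26 were recovered at -2, 0% of 28 at -1, 0% of 24 at 1 and 36.8% of 38 at 2, with 5 false calls. Few of the simulated regions were changed, while 45.1% of the real tested regions were called, so these rates need not hold for the real tests. Libraries of a group differed by more than counting noise, with a chi-square of 2.00 to 6.42 per degree of freedom. The match letters and microRNA sequences were read from RefSeq tables on GRCm38.p6. The regions, gene lists and tests were chosen with earlier results of these data known. Regions were named by rule: among tested members the 10 lower and the 10 higher with the smallest p, the 10 of highest mean CPM and up to 10 lower 8mer regions with the smallest p; Akr1c14, Bpgm and Clock are named for their printed sites, Rpl14 and Rpl14-ps1 as a gene and its pseudogene. Bpgm and Clock were not tested. Alternatives were another scaling, filter or set of terms, subsets of the members and leaving out each library in turn. Tables and plots were made with Python 3.11.15, pandas 2.3.3 and matplotlib 3.10.9.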

Additional observations from a re-analysis of the deposited data

Results flagged for a closer look

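Among 68 groups of libraries of the named regions, 5 held a library whose gap to the nearest other library was large for the range of its group (Dixon's test at 95%, which chance passes in about 1 of 20 groups). At the Btg1 region, KO replicate 1 had 22.9 CPM and the other KO libraries 3.27 to 5.85 CPM. At Serinc1, KO replicate 4 had 63.7 CPM and the others 20.9 to 25.2 CPM. At Atp6v0e, KO replicate 4 had 83.3 CPM and the others 113 to 117 CPM. At Glo1, control replicate 1 had 53.6 CPM and the others 81.8 to 92.6 CPM, and at Ctnnb1, control replicate 1 had 137 CPM and the others 71.1 to 85.5 CPM.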

How the results depend on the processing

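The 85 lower and 5 higher of 150 tested members, their median of -1.58 and the ratio of shares of 0.790 (all members, KO over control) kept their direction in every alternative run. Upper quartile scaling, which moved the median of all regions to 0.26 and the higher part of all calls to 49.3% (38.8% with TMM; 33.4% with TMM from regions without a guide-strand match), gave 8 higher and a median of -1.34; TMM from regions without a guide-strand match gave 3 higher; DESeq2 gave 84 lower and 4 higher. No filter gave 216 lower, 25 higher and a median of -1.13 over 747, and a mean of at least 20 counts gave 37, 2 and -1.91 over 57. Members with a 7mer or 8mer alone gave 2 higher and a median of -2.46; those with no other family 53 lower, 3 higher, -2.97 and a ratio of 0.400; those away from guide-strand regions 44 lower, -1.32 and 0.619. Without structural RNA and microRNA regions, an alternative chosen after seeing the data, the ratio was 0.438. Leaving out each library in turn gave 54 to 113 lower, 1 to 7 higher, medians of -1.78 to -1.28 and ratios of 0.763 to 0.842; for regions against their gene it gave 31 to 68 lower and 2 to 6 higher. Lower calls against the gene fell to 32 without control replicate 3 and to 31 without control replicate 4, where fewer regions were tested. Without guide-strand regions in the rest of the gene, 0 members were higher than their gene. Replicates share only a number across groups (same-number correlations of -0.089 to 0.001), and with the replicate block, which leaves out control replicate 5, 67 of 130 were lower and 6 higher with a median of -1.18. Over the alternatives in which they were tested, named regions kept their call 470 times and no call reversed. There were 21 calls lost, 9 at Foxp1, 7 at AI597479, 2 each at Polr2m and Serinc1 and 1 at Ctnnb1, and 6 gained, at Txnip. Low counts limit the members: 597 of 747 were not tested.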
